A study of Mus musculus with 4 samples.

Results

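The Egr and Nr4a families are 7 genes, Egr1, Egr2, Egr3, Egr4, Nr4a1, Nr4a2 and Nr4a3, and all 7 were found by symbol among the 19465 genes of the deposited table. They were chosen because earlier results on the same table had shown genes of these families at different levels in different sections, so their levels are given as descriptions, with no test. The study measured coronal brain sections cut to contain the striatum, 1 from each of 4 mice, with the Visium CytAssist assay for formalin-fixed, paraffin-embedded tissue, in which gene probes are read out at an array of barcoded positions, the spots. A pair of the mice was wild type and a pair was heterozygous for Celsr3, which encodes an adhesion G protein-coupled receptor. The labels state that none was treated and do not give age, strain or the Celsr3 allele. The series concerns Celsr3 deficiency, tic-like behaviour and dopamine in the striatum.

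The spot barcodes carry 4 endings, numbered here as sets 1 to 4, and no label ties an ending to a mouse. The genotypes were therefore not compared, and each value below belongs to 1 section. Intervals are exact 95% intervals for the error of counting alone. A difference beyond them is one between single sections, and section and genotype cannot be told apart. A spot can hold several cells, and fewer expressing cells in a spot cannot be told apart from less RNA per cell.

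Egr proteins are zinc-finger transcription factors whose genes respond within minutes to synaptic input, growth factors and other stimuli, and the Nab proteins are their co-repressors. Nr4a proteins are orphan nuclear receptors that bind DNA alone or, for Nr4a1 and Nr4a2, with a retinoid X receptor (Rxr). Most of the 7 are immediate-early genes, switched on through factors such as Srf, Elk and Creb that are already present in the cell. In the striatum, Egr1 and Nr4a1 are widely used as readouts of corticostriatal and dopaminergic signalling. Nr4a2, also called Nurr1, is in addition a lasting marker of neurons of the deepest cortex, of the claustrum and of midbrain dopamine neurons.

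Core motifs of the cyclic AMP response element, to which Creb binds, were searched in the 250 bases before each listed start site of the members, on both strands, because these genes respond to that pathway. The sequences below are from RefSeq (GRCm38.p6) and are printed 5′ to 3′ on the strand of the gene, with each core, TGACG or its reverse complement CGTCA, in capitals. Egr4 lies on chromosome 6 from 85511121 to 85513589 on the minus strand, and its window is chr6:85513590-85513839. Nr4a1 lies on chromosome 15 from 101253902 to 101274795 on the plus strand, and its window, chr15:101266596-101266845, lies inside the gene model, before a start site within it. Nr4a2 lies on chromosome 2 from 57106830 to 57124003 on the minus strand, and its window is chr2:57124004-57124253. These 3 windows are shown as examples of windows that hold several copies of the core.
Egr4: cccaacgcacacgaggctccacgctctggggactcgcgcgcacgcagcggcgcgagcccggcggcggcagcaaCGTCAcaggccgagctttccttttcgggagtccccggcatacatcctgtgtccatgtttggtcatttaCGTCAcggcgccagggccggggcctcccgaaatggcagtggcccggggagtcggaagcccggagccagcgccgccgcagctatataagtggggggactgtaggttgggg
Nr4a1: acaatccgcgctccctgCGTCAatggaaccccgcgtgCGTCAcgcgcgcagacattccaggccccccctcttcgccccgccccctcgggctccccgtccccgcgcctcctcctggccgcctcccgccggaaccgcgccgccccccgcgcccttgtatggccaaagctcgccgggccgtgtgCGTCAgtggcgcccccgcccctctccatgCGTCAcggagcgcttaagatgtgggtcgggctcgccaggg
Nr4a2: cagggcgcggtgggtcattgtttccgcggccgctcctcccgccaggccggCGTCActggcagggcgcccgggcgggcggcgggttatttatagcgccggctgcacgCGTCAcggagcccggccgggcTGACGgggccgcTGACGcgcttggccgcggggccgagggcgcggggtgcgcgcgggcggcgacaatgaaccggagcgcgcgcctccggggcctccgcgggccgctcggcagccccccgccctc
The window of Egr4 held 2 cores and those of Nr4a1 and Nr4a2 held 4 each. Nr4a3 (chromosome 4, 48045078 to 48086447) also held 4. Egr2 has 5 listed windows, of which 3 overlapping ones held 2 cores each and the others held 0. Of 32851 RefSeq windows of the same length, 17.8% held at least 1 core, 3.90% at least 2 and 0.137% at least 4. The full 8-letter element TGACGTCA, which contains the core, was in none of these windows and in 1.55% of all. The Egr binding motif GCGGGGGCG was found once, in the window of Nr4a1, 60 bases before the start site, against 2.57% of all windows. The Nr4a motif AAAGGTCA was in none of the members' windows and in 1.34% of all. A match of letters is a description of the sequence and shows no binding. Egr1 and Egr3 are named only.

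Areas were formed by clustering spots on 139 marker genes that include none of the 7, and each area is named here by its markers. The 12601 kept spots gave 18 clusters, of which 14 were placed in 12 areas holding 11979 spots. The striatal-marker area had Adora2a and Ppp1r1b among its leading genes, with a smaller cluster led by Slc18a3 and Chat, and it held 657, 740, 836 and 490 spots in sets 1 to 4. Cortical areas carried markers of layer 2/3 (led by Cux2), layer 4 (Rorb, Rspo1), layer 5 (Fezf2), layer 6 (Rprm) and layer 6b (Ccn2, Cplx3). Rprm was the only gene of the layer 6 list among the 10 leading genes of its cluster. Myl4 of the layer 5 list and Nxph3 of the layer 6b list also stood there, so the layer 6 name is less sure. The others carried markers of cholinergic basal forebrain (Ngfr, Lhx8), hypothalamus and preoptic area (Baiap3, Oxt, Avp), white matter (Mal), thalamus (Tcf7l2), lateral septum (Zic1) and choroid plexus (Ttr). Zic1 was the only gene of the septal list among the 10 leading genes of its cluster. Prkcd of the thalamic list also stood there, so the septal name is less sure. Of its 7 markers, 6 in set 2 and 5 in set 3 were at least 1.5-fold above the other spots. All 16 striatal markers were at least 1.5-fold above the other spots of the section in every set, with 10 CPM added to both levels. The summed list was 4.31, 3.53, 3.93 and 5.60 times its whole-section level. The layer 5 list was the least distinct, at 1.09, 1.03, 1.00 and 1.35 times its whole-section level. Of its 11 markers, 6 to 8 were at least 1.5-fold above the other spots. In 9 areas every set could be used. The thalamic-marker area was used in sets 1 and 4, the septal-marker area in sets 2 and 3, and the choroid-marker area in sets 1, 3 and 4.

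Total counts were 174761560, 109663162, 165185177 and 90752475 in sets 1 to 4, and median counts per spot 52481, 38182, 44966 and 26444. Sets 1 and 3 were thus deeper than sets 2 and 4. With all sets thinned to the depth of the shallowest, 111 of 112 levels of the members stayed within counting error of those given here. Thinning removes counts at random and leaves the expected CPM unchanged, so this cannot show whether depth affected the levels. The sets share barcodes of the same grid: of 4744 different barcodes, 1613 occurred in all 4 sets, and none occurred more than once within a set. Levels are counts per 1000000 counts (CPM) of the area and set. Probes differ between genes, so levels of different genes are not compared.

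**Figure D1:**
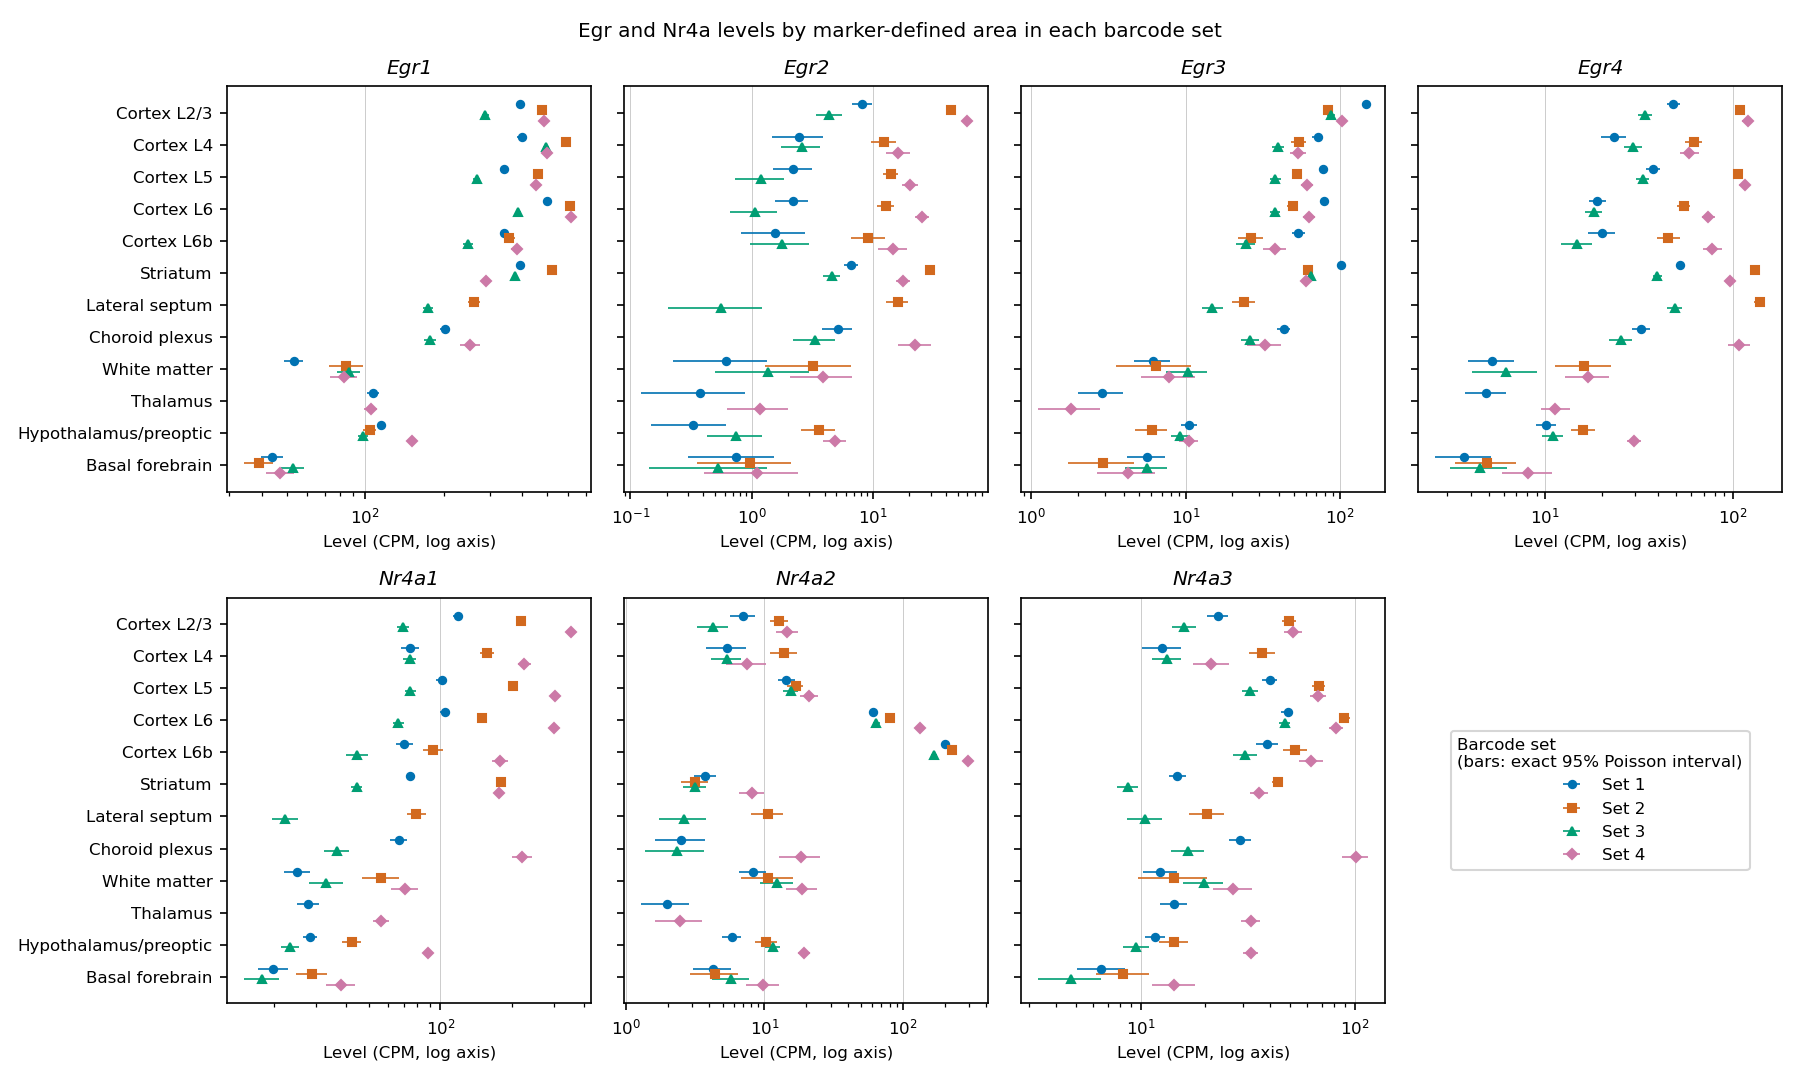
Level of each gene (x axis, CPM, log scale) in each marker-defined area (y axis), with 1 symbol per barcode set and exact 95% Poisson intervals as bars. Cortical and striatal areas lie at the high end for the Egr genes and Nr4a1, while Nr4a2 is highest in the layer 6b-marker area, at 168 to 295 CPM.

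Most of the 7 genes were highest in a cortical area and lowest in the basal forebrain-marker area. Of 28 pairs of a gene and a set, 23 had their highest level in a cortical area, against 23.6% of all gene and set pairs. The exceptions were Egr2 in set 3 and Egr4 in set 1, both highest in the striatal-marker area, Egr4 in sets 2 and 3, highest in the septal-marker area, and Nr4a3 in set 4, highest in the choroid-marker area. An area was called higher or lower than all other spots of its section where the interval of the ratio left out 1. These other spots differed in tissue between the sets, so ratios of different sets do not share a reference. The hypothalamic-marker area, for example, held 537, 320, 538 and 652 spots in sets 1 to 4. In the striatal-marker area 16 of the 28 ratios were higher and 8 lower, against 26.8% higher and 46.0% lower over all gene and set pairs. In the layer 2/3-marker area 22 were higher and 5 lower, with 23.3% and 38.0% of all pairs. In the layer 5-marker area and in the layer 6-marker area 19 were higher and 6 lower in each, with 20.2% and 43.3% of all pairs in the first and 19.8% and 43.6% in the second. The layer 4-marker area had 11 higher and 10 lower (18.7% and 36.8% of all pairs), and the layer 6b-marker area 12 higher and 10 lower (14.7% and 28.1%). The members were chosen with values of these sections known, and nothing is read from these counts.

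**Figure D2:**
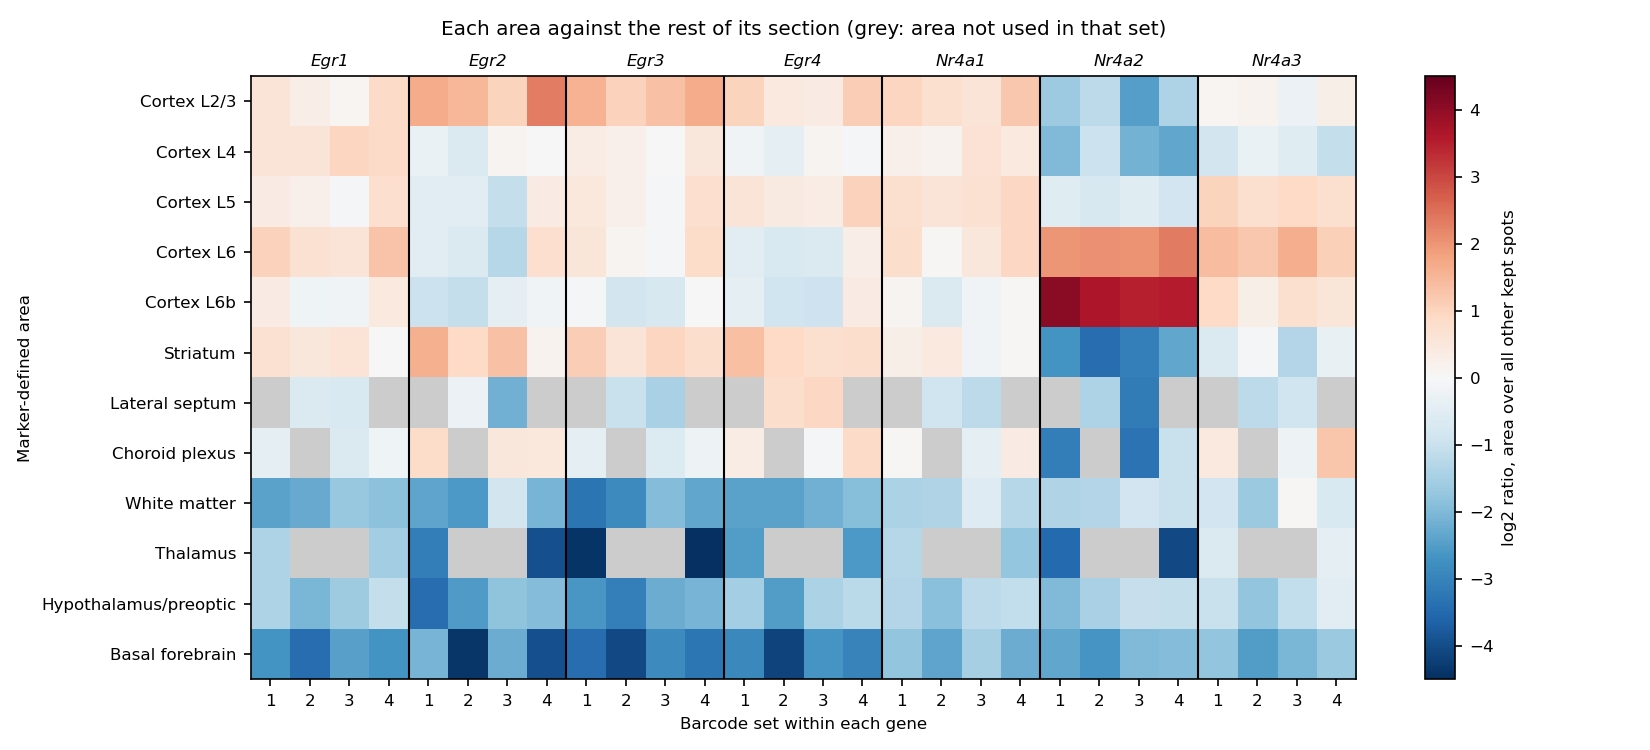
Colour shows the log2 ratio of the level in an area (rows) to all other kept spots of the same set, for each gene and barcode set (columns); grey cells are areas not used in that set. The basal forebrain and hypothalamic rows are below 0 for every gene and set, and the layer 6b row is strongly above 0 for Nr4a2.

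Egr1, the most studied member and a common reporter of neuronal activity, was found throughout cortex and striatum. Its striatal-marker level was 393, 521, 375 and 290.3 CPM in sets 1 to 4. This was 1.62, 1.43, 1.51 and 1.01 times the level in the other spots of the section, so the striatum stood out in sets 1 to 3 and not in set 4. Its highest levels were in the layer 6-marker area, at 500.1, 609, 386 and 618 CPM, and in the layer 4-marker area, at 398, 591, 495 and 498 CPM. The ranges of the 6 highest areas, which were the 5 cortical areas and the striatum, overlapped from each to the next, so their order is not fixed. In the layer 2/3-marker area it was at 391, 476, 289 and 484 CPM. There its ratio was above 1 in every set, but the direction in set 3 turned with other area settings, as given in the closing section. The lowest levels were in the basal forebrain-marker area, at 43.8, 39.0, 52.7 and 47.1 CPM, below those of every other named area.

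Egr2, known for its part in myelinating Schwann cells and hindbrain patterning and also activity-induced in neurons, had few counts and was most concentrated in the upper cortex. In the layer 2/3-marker area it was at 8.11, 43.7, 4.38 and 59.5 CPM and in the striatal-marker area at 6.64, 29.9, 4.58 and 17.8 CPM. Sets 2 and 4 were higher than sets 1 and 3 in both areas, without overlap. The ratio of the striatal-marker area to the other spots was 3.03, 1.88, 2.48 and 1.12. In the layer 6-marker area Egr2 was below the other spots in 3 of the 4 sets and above them in 1, with ratios from 0.409 to 1.68. In the area of white matter markers, Egr2 was at 0.611, 3.23, 1.37 and 3.91 CPM. The basal forebrain-marker area gave 7, 6, 4 and 6 counts in sets 1 to 4, which is 0.740, 0.976, 0.525 and 1.10 CPM, close to the limit of what these counts can show.

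Egr3, which acts downstream of neuronal activity and is needed for muscle spindles, was highest in the layer 2/3-marker area in every set, at 146, 83.9, 87.1 and 103 CPM. The striatal-marker area had the next highest median over the sets, though not the next highest level in every set. It was at 101, 61.4, 64.3 and 60.3 CPM in sets 1 to 4, 2.16, 1.49, 1.95 and 1.72 times the other spots. Egr3 was highest in set 1 in both areas, and in the striatal-marker area sets 2, 3 and 4 lay within counting error of one another. In the thalamic-marker area it was at 2.86 and 1.81 CPM in sets 1 and 4.

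Egr4, which can act with or in place of Egr3 and is also expressed in germ cells, had its highest medians over the sets in septum, layer 2/3 cortex, striatum and layer 5 cortex. Its level in the striatal-marker area was 52.2, 131, 39.6 and 96.8 CPM, 2.59, 1.88, 1.65 and 1.73 times the other spots. The layer 2/3-marker and layer 5-marker areas had 48.2, 109.8, 34.1 and 120.1 CPM and 37.7, 106, 33.0 and 116 CPM. In the layer 6-marker and layer 6b-marker areas Egr4 was below the other spots in 3 of the 4 sets and above them in 1. The ratios there ran from 0.625 to 1.23 and from 0.529 to 1.28. The septal-marker area had 139 and 48.9 CPM in sets 2 and 3, 1.73 and 1.91 times the other spots. Egr4 was thereby the one member higher in the septal-marker area than elsewhere: of 14 pairs of a gene and a set there, 2 were higher, both of them Egr4, and 11 lower, where 33.7% of all gene and set pairs were higher and 24.2% lower.

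Nr4a1, also called Nur77 and studied in striatal neurons as a gene sensitive to dopamine receptor drugs, was highest in the layer 2/3-marker area in sets 1, 2 and 4 and in the layer 5-marker area in set 3. The layer 2/3-marker area had 119, 218, 69.7 and 352 CPM and the layer 5-marker area 101, 201, 74.8 and 304 CPM. The striatal-marker area had 74.9, 179.6, 44.5 and 176 CPM. The striatum did not stand out from the rest of the section as it did for Egr3 and Egr4: the ratios were 1.2, 1.36, 0.888 and 1.04, above 1 in sets 1 and 2, below 1 in set 3 and within counting error in set 4. The layer 6-marker area had 105, 149, 66.6 and 300.2 CPM, and the ranges of the 5 cortical areas and the striatum overlapped from each to the next.

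Nr4a3, also called Nor1, was placed deeper in the cortex. It had 48.5, 89.6, 47.0 and 82.1 CPM in the layer 6-marker area, 40.0, 67.8, 32.5 and 67.4 CPM in the layer 5-marker area and 39.0, 52.7, 30.8 and 62.7 CPM in the layer 6b-marker area. In the striatal-marker area it was at 14.8, 43.8, 8.68 and 35.7 CPM, 0.635, 0.972, 0.399 and 0.802 times the other spots. The striatal level was below the rest of the section in sets 1, 3 and 4 and within counting error in set 2. At the other clustering resolutions set 4 was also within counting error, with log2 ratios of 0.011 and 0.024. In the choroid-marker area, where the 28 gene and set pairs reduce to 21, Nr4a3 was at 29.2, 16.6 and 101 CPM in sets 1, 3 and 4. Over the 7 genes, 7 of these 21 pairs were higher there and 9 lower, where 29.0% of all gene and set pairs were higher and 33.1% lower. The 78 spots of set 4 in this area had the highest Nr4a3 level of any area and set used. This was not particular to Nr4a3: Egr2, Egr4 and Nr4a1 also had their highest choroid-marker levels in set 4, at 22.3, 108 and 220 CPM. The summed choroid markers of these 78 spots were at 27522 CPM, against 127531 and 123220 CPM in sets 1 and 3. The area was thus less marked as choroid plexus in set 4, and what other tissue its spots held was not tested.

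Nr4a2 had a layout of its own. In the layer 6b-marker area it was at 203, 225, 168 and 295 CPM, 16.8, 12.5, 11.4 and 11.7 times the other spots, and it stood among the leading genes of that cluster although it was not used to form it. The share of all genes 2-fold or more higher in that area was 1.57%, 1.78%, 1.47% and 1.52% in sets 1 to 4. The layer 6-marker area followed at 60.8, 80.2, 64.4 and 132 CPM and the layer 5-marker area at 14.4, 16.8, 15.5 and 21.0 CPM. The ranges of these 3 areas over the sets did not overlap. In the striatal-marker area it was at 3.74, 3.14, 3.15 and 8.09 CPM, 0.155, 0.0939, 0.117 and 0.200 times the other spots, where 14.0%, 11.5%, 13.1% and 11.4% of all genes were 2-fold or more lower. The striatal-marker area was among the lowest for Nr4a2, with 120, 80, 106 and 94 counts in sets 1 to 4.

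Nr4a2 was uneven within the layer 6-marker area. In set 1 the median spot had 19.9 CPM and the 90th percentile 162 CPM. The medians in sets 2, 3 and 4 were 32.5, 18.5 and 54.6 CPM and the 90th percentiles 250.5, 227 and 425 CPM. High values were thus held by a small part of the spots in every set. Spots whose highest score was for markers of claustrum and endopiriform nucleus numbered 101, 104, 118 and 167 in sets 1 to 4. Of those in set 1, 12 lay in a cluster of 17 spots for which the same list scored highest but too few markers were high to name it. The claustrum-scoring spots lay mostly in the layer 6-marker area (44.6%, 58.7%, 58.5% and 46.7% of them) and the layer 6b-marker area (19.8%, 17.3%, 22.0% and 21.6%). Across all areas they had 235, 251, 227 and 326 CPM of Nr4a2.

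In the layer 6-marker area, 45, 61, 69 and 78 claustrum-scoring spots held 792, 673, 954 and 917 of the 1174, 1008, 1334 and 1149 Nr4a2 counts. Most of the Nr4a2 counts of the area were therefore in a minority of its spots. Those spots had 248, 246, 214 and 353 CPM, and without them the area had 23.7, 34.1, 23.4 and 38.2 CPM. In the layer 6b-marker area, 20, 18, 26 and 36 such spots had 518, 463, 387 and 529.7 CPM, and the rest still had 129.6, 166, 112 and 200.0 CPM. The layer 6b level thus stayed high in the remaining spots, while that of layer 6 was at most 38.2 CPM. When areas were assigned by marker score instead of clusters, the log2 ratio of layer 6 to the other spots in set 3 was -0.00213 (-0.183 to 0.174), within counting error of no difference. Nr4a3 did not follow this split: in the layer 6-marker area it was at 37.8, 81.1, 34.4 and 56.9 CPM in claustrum-scoring spots and 50.7, 92.0, 50.5 and 92.9 CPM in the others. The split by claustrum score was chosen after the values were seen.

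**Figure D3:**
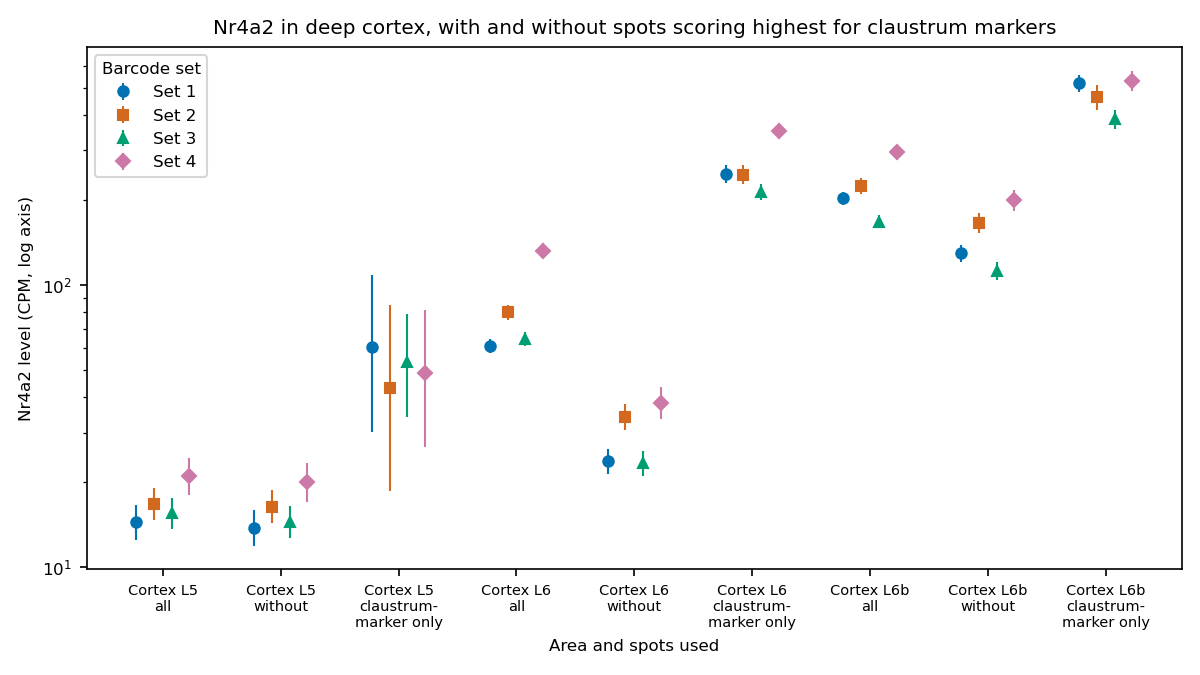
Nr4a2 level (y axis, CPM, log scale) in the layer 5-, 6- and 6b-marker areas over all spots, without the claustrum-scoring spots and in those spots alone, with 1 symbol per barcode set and exact 95% Poisson intervals as bars. Removing the claustrum-scoring spots takes layer 6 from 60.8 to 132 CPM down to 23.4 to 38.2 CPM, while layer 6b stays at 112 to 200.0 CPM.

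In 4 areas outside cortex and striatum nearly all members were low, whereas the septal-marker and choroid-marker areas were mixed, as given above. In the basal forebrain-marker area all 28 gene and set pairs were below the other spots, where 28.0% of all gene and set pairs were lower and 30.2% higher. The same count, 28 of 28, was found in the hypothalamic-marker area, with 27.6% of all pairs lower and 41.7% higher. In the thalamic-marker area 14 of 14 were lower, where 34.3% of all pairs were lower and 28.2% higher. In the white matter-marker area 26 of 28 were lower, with 34.2% and 30.6% of all pairs. Nr4a1, for example, was at 19.9, 28.8, 17.8 and 38.2 CPM in the basal forebrain-marker area and 28.4, 42.4, 23.3 and 88.7 CPM in the hypothalamic-marker area. Nr4a2 was at 5.79, 10.3, 11.4 and 19.3 CPM in the latter, above its striatal level in every set.

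The sets differed more for some members than for others. In the striatal-marker area, 5 of the 7 genes were at least 2-fold apart between their highest and lowest set, where 17.0% of all genes were. The members were chosen with differences between these sections known, so an excess over all genes was built into the choice. Nothing is read from it, here or in the counts by pair of sets and by area below. The highest set exceeded the lowest 6.53-fold (5.48 to 7.81) for Egr2, 5.05-fold (4.43 to 5.76) for Nr4a3, 4.03-fold (3.80 to 4.28) for Nr4a1 and 3.31-fold (3.10 to 3.53) for Egr4. For these 4 genes set 2 was highest and set 3 lowest, with set 4 next to the top and set 1 next to the bottom, although for Nr4a1 sets 2 and 4 were within counting error (set 4 over set 2 0.983, 0.932 to 1.04). Nr4a2 differed 2.57-fold (1.89 to 3.51), with set 4 highest and the other 3 sets within counting error of one another. Without set 4 the log2 fold of Nr4a2 fell from 1.36 to 0.25. Leaving out set 3 took that of Nr4a1 from 2.01 to 1.26 and that of Nr4a3 from 2.34 to 1.57, and leaving out set 2 took that of Egr2 from 2.71 to 1.96. Egr1 differed 1.80-fold (1.73 to 1.86), highest in set 2 and lowest in set 4. Egr3 differed 1.68-fold (1.55 to 1.83), highest in set 1, and without set 1 its log2 fold fell from 0.75 to 0.09.

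By pairs of sets in the striatal-marker area, 4 members had at least 2-fold more in set 2 than in set 1 (3.28% of all genes), 4 in set 4 than in set 1 (5.12%), 4 in set 2 than in set 3 (2.93%) and 5 in set 4 than in set 3 (5.10%). Between sets 1 and 3 no member was 2-fold apart (0.793% of all genes had 2-fold more in set 3 and 0.694% in set 1). Between sets 2 and 4 only Nr4a2 was, higher in set 4 (1.68%). The sets also differed in depth, as given above, and in the tissue each section held. Summed markers of other cells in the striatal-marker area were 14515, 10221, 10107 and 14741 CPM for 10 white matter genes, 2733, 2234, 2427 and 2917 CPM for 6 astrocyte genes, 272, 303, 269.7 and 277 CPM for 5 microglial genes and 182, 185, 132 and 193 CPM for 7 vascular genes. All genes of these 4 lists had counts in every set. The part of depth, section and cell makeup in the differences was not tested.

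**Figure D4:**
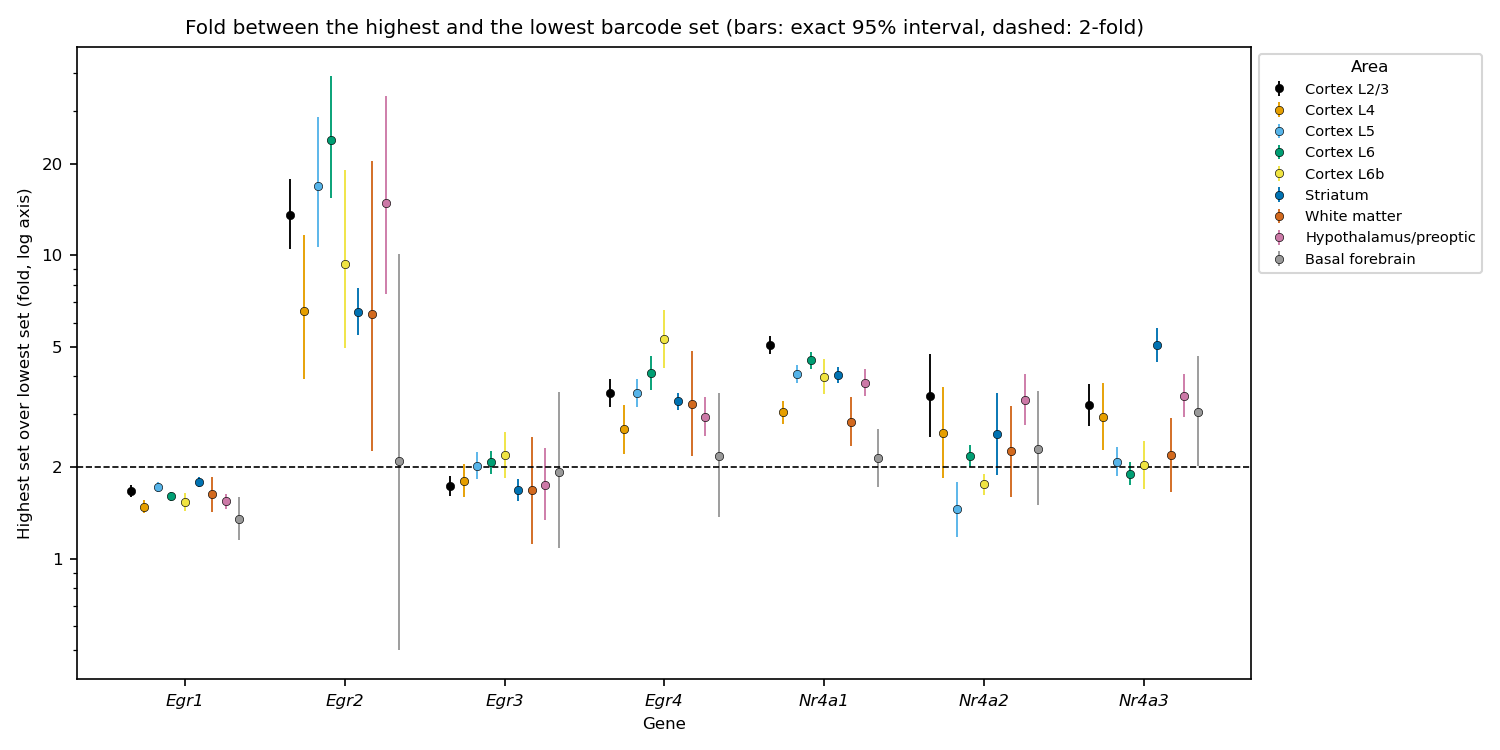
Fold of the highest over the lowest barcode set (y axis, log scale) for each gene (x axis) in the 9 areas used in every set, with exact 95% intervals as bars and a dashed line at 2-fold. Egr2 spans 2.10 to 24.0, while Egr1 stays between 1.35 and 1.80 in all 9 areas.

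The same genes were far apart in other areas. Over the 9 areas, the fold of the highest over the lowest set ranged from 2.10 to 24.0 (median 9.34) for Egr2, 2.14 to 5.06 (3.98) for Nr4a1, 2.19 to 5.28 (3.31) for Egr4, 1.91 to 5.05 (2.93) for Nr4a3 and 1.45 to 3.44 (2.30) for Nr4a2. It ranged from 1.68 to 2.19 (1.81) for Egr3 and from 1.35 to 1.80 (1.60) for Egr1. Egr2, Egr4 and Nr4a1 reached 2-fold in all 9 areas, Nr4a3 in 8, Nr4a2 in 7, Egr3 in 3 and Egr1 in none. The widest, that of Egr2 in the layer 6-marker area, was 24.0-fold (15.5 to 39.1), from 2.18, 12.7, 1.06 and 25.5 CPM in sets 1 to 4. Its log2 fold of 4.58 was 3.55 without set 3 and 3.58 without set 4. In the basal forebrain-marker area the 2.10-fold of Egr2 had an interval of 0.499 to 10.1 and so was within counting error.

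By area, 5 of the 7 members were 2-fold apart in the layer 2/3-marker area (20.5% of all genes), layer 4 (21.5%), layer 5 (18.8%), layer 6 (18.3%), layer 6b (22.9%), the hypothalamic-marker area (18.9%) and the white matter-marker area (38.1%), and 4 of the 6 with at least 1 CPM in the basal forebrain-marker area (24.9%). Over the whole section 4 of 7 were (16.9%). The set at the top was not the same in every area. Set 4 was highest for Egr2, Nr4a1 and Nr4a2 in 8 of the 9 areas each, and for Egr4 in 7, whereas in the striatal-marker area set 2 was highest for Egr2 and Egr4, and sets 2 and 4 were within counting error for Nr4a1. Nr4a3 was highest in set 4 in 5 areas and in set 2 in 4. Egr3 was highest in set 1 in 7 areas and in set 3 in the other two. Set 3 was lowest for Nr4a1 in 8 of the 9 areas and for Nr4a3 in 7.

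After thinning, differences in level between the sets went with differences in how many spots held a count for Nr4a1, Egr2 and Nr4a3. From all counts they did not always do so. Nr4a1 was counted in more striatal-marker spots of set 1 than of set 4, although its level was lower in set 1. Nr4a1 was counted in 83.7, 95.3, 73.3 and 76.3% of striatal-marker spots in sets 1 to 4, and in 55.0, 85.0, 45.0 and 68.6% after thinning each spot to 15000 counts, a depth that 12098 of the 12601 spots reached. Egr2 was counted in 23.6, 55.3, 15.8 and 27.1% of them, and in 8.08, 32.2, 6.22 and 20.4% after thinning. Nr4a3 was counted in 44.1, 73.8, 25.7 and 45.1%, and in 19.5, 48.6, 10.9 and 34.4% after thinning. After thinning, sets 2 and 4 had larger shares than sets 1 and 3 for all 3 genes. Nr4a2 was counted in 12.2, 6.62, 8.85 and 11.2% of striatal-marker spots and, after thinning, in 5.95, 4.20, 4.19 and 9.55%, against 80.4, 76.1, 80.5 and 86.5% of layer 6b-marker spots. A share of spots with a count does not separate expression in few cells from RNA that spread between spots.

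Within the striatal-marker area, spots with more Egr1 tended to hold more Nr4a1 in 3 of the sets. Pearson's r over spots for this pair was 0.462, 0.465, 0.131 and 0.509 in sets 1 to 4, and 0.273, 0.357, 0.0530 and 0.436 after thinning. For Egr4 and Nr4a1 it was 0.292, 0.393, 0.154 and 0.554. Set 3, in which these genes were at their lowest striatal levels apart from Egr1, had the weakest r for both pairs. Of 21 pairs of members, 8 had a median r over the sets of at least 0.2, and 1 did after thinning, the pair of Egr1 and Nr4a1. Nr4a2 showed no such relation, with r from -0.147 to 0.0288 against the other 6 genes in the striatum. In the layer 6-marker area its r against Egr1 was -0.431, -0.0862, 0.00502 and -0.280. Spots of a section share the library, depth and neighbourhood, so these are descriptions over 490 to 836 spots and 258 to 321 spots a set.

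**Figure D5:**
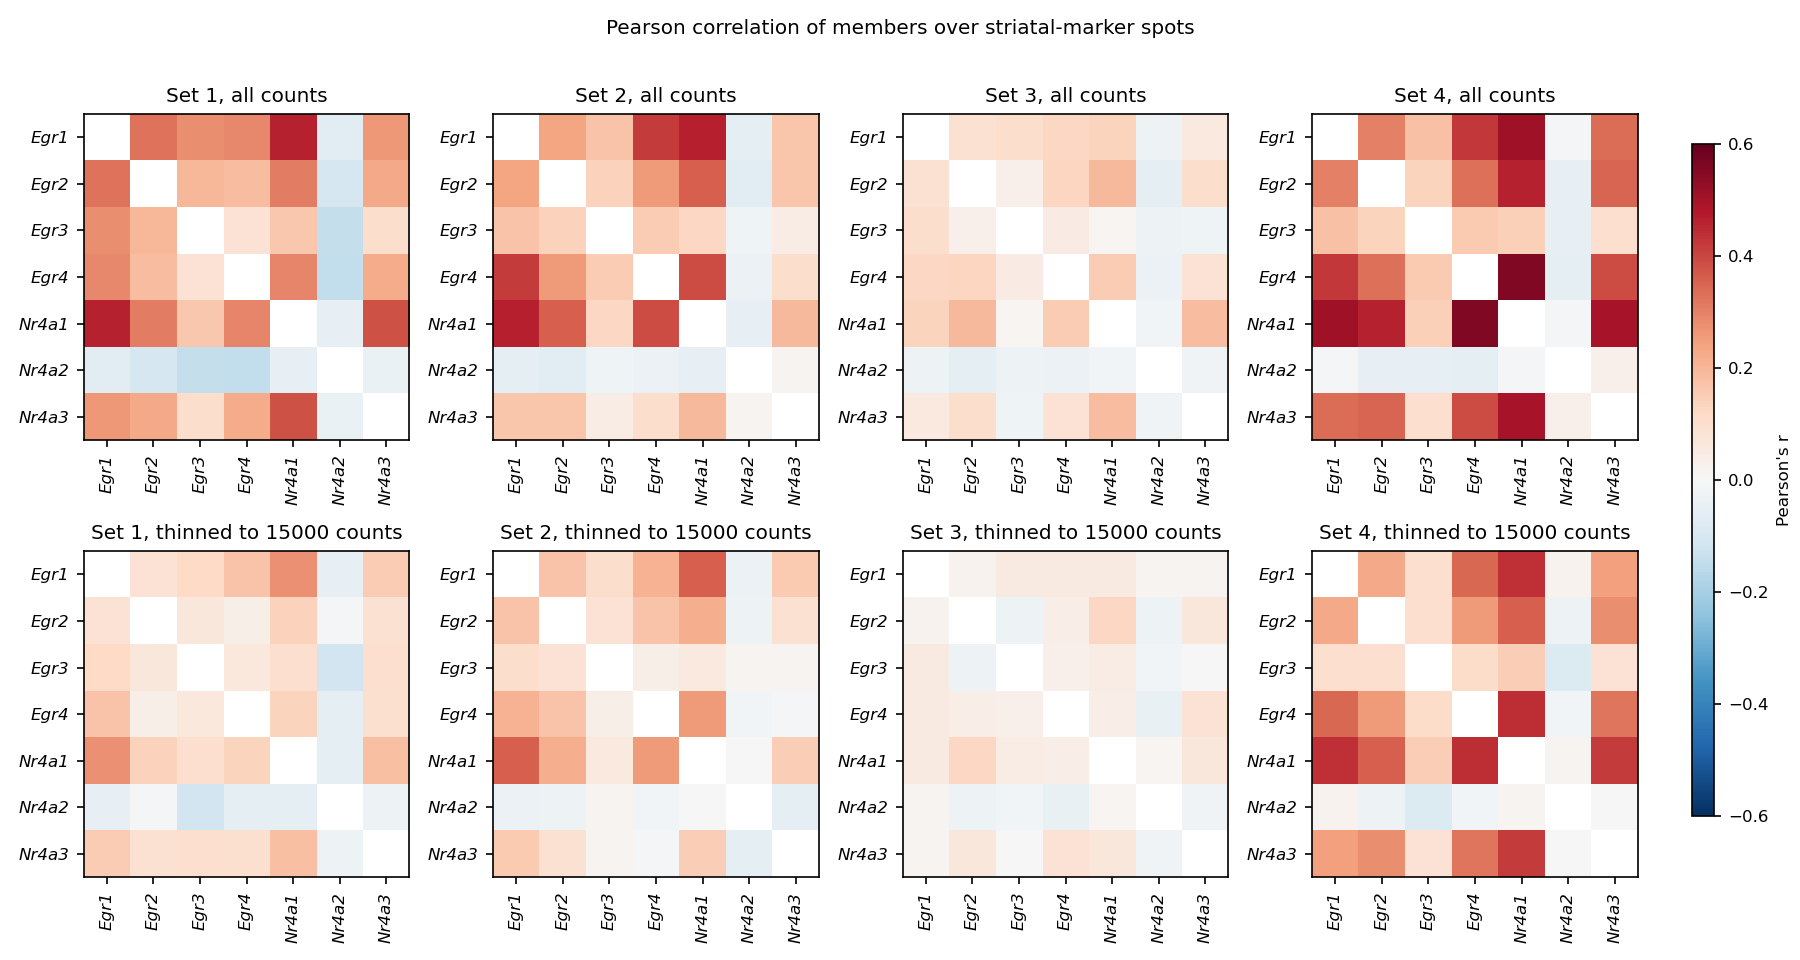
Pearson's r between members over the striatal-marker spots of each barcode set (panels), from all counts (upper row) and after thinning each spot to 15000 counts (lower row). The Egr1 and Nr4a1 pair reaches 0.509 in set 4 and 0.131 in set 3, and cells with Nr4a2 stay close to 0.

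Across areas, Egr1, Egr3 and Nr4a1 had the most similar layouts among the members. Pearson's r of log2(CPM + 1) over the areas of a set, averaged over the 4 sets, was 0.935 for Egr3 and Nr4a1, 0.924 for Egr1 and Nr4a1 and 0.921 for Egr1 and Egr3. It was 0.617 for Nr4a2 and Nr4a3, and 0.0386 for Egr2 and Nr4a2. Among 11567 genes outside the families whose mean over areas reached 5 CPM, those with the most similar layout included Pcdhgc5 (0.949), Camkk2 (0.947), Chn1 and Sorbs2 for Egr1, and were Itpka (0.987), Dlgap2 (0.972), Pcdhgc5, Homer1 and Sipa1l1 for Egr3. For Egr2 they were Smad3 (0.921), Ddn, Grasp, Kcnh4 and Cdk17, and for Egr4 2010300C02Rik (0.946), Lzts1, Wdr13, Ptk2b and Dgkh. For Nr4a1 they were Synpo (0.946), Lmo4, Cnksr2, Dlgap2 and Kcnv1. Those for Nr4a2 were Chrna5 (0.943), Gpr21, Nxph3, Usp46 and Krt80, of which Nxph3 was a marker used to form the areas. For Nr4a3 the values were lower, from Dynll1 (0.880) through Sstr4, Igfbp4 and Dkk3 to E2f1 (0.823). Each r rests on 10 or 11 areas of 1 section that share a library, and the genes of a list share those areas.

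Other genes of the pathway were compared between the sets in the striatal-marker area in the same way as the members. Of 32 activity-induced genes outside the families at 1 CPM or more, 18 were at least 2-fold apart (17.0% of all genes), with a median fold of 2.07 against 1.48 over all genes. Fos, a partner in the AP-1 dimer, was at 5.64, 31.9, 2.29 and 22.7 CPM, a 14.0-fold range. Arc, which acts in receptor endocytosis at synapses, was at 129, 341, 77.5 and 295 CPM (4.40-fold). Junb was at 52.5, 125, 37.7 and 117 CPM (3.33-fold) and Npas4, a factor induced by calcium entry, at 6.64, 12.1, 3.12 and 11.3 CPM (3.89-fold). In each of these 4 genes sets 2 and 4 were the highest, as for Egr2, Egr4, Nr4a1 and Nr4a3. Over the 18 genes 2-fold apart, sets 2 and 4 were both above sets 1 and 3 in 15 (6.65% of all genes were 2-fold apart in this order) and both below them in 3 (6.97%), a count made after the values were seen. The 3 were Nfil3, at 4.14, 1.85, 3.42 and 2.32 CPM, Rheb, at 194, 95.4, 139 and 87.5 CPM, and Inhba, at 3.21, 1.49, 2.73 and 1.89 CPM. Homer1, at 266, 173, 174 and 145 CPM, had the same order of sets as Rheb and as Egr3, with set 1 highest and sets 2 and 3 close together. Its range was 1.84-fold, so it was not among the 18. In the layer 2/3-marker area 23 of 32 were 2-fold apart (20.5% of all genes), and in the layer 6-marker area 24 of 32 (18.3%).

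Of 13 factors upstream of these genes, 2 were 2-fold apart in the striatal-marker area, near the 17.0% of all genes, and the median fold of the 13 was 1.35. The 2 were Atf1 at 19.8, 8.92, 22.4 and 10.5 CPM and Mef2c at 175, 85.2, 157 and 138 CPM. Srf, which binds the serum response elements of Egr genes, was at 72.9, 90.6, 67.2 and 86.0 CPM, and Creb1 at 47.9, 41.1, 43.6 and 47.3 CPM. Of 8 kinase-pathway genes none was 2-fold apart, with a median of 1.24. Of 4 co-factors and partners 1 was, Rxrg, a retinoid X receptor of striatal neurons, at 281, 390.3, 289 and 142 CPM and lowest in set 4. Nab2, itself induced by Egr proteins, was at 76.3, 87.1, 80.6 and 87.3 CPM, a 1.14-fold range. Over all genes the median fold was 1.48, and nothing particular to a list is read from these counts.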

How the data were processed

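Spatial gene expression was measured in 1 brain section from each of 4 mice. The authors deposited 1 table of raw counts per gene and spot, and all values were checked to be whole and at least 0. Space Ranger and Seurat are named, without version, in the submitters' processing notes; the genome build and probe set are not given in the sources used here. The 12602 spot columns carry a barcode ending that matches no sample, so 12602 columns have no sample and the planned genotype test was not run. The 7 members and all lists were chosen with earlier results of these data known.

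Spots under 500 counts were left out (1 spot). Counts of 139 marker genes from 16 lists, scaled to 10000 per spot and log-transformed, gave 30 principal components, 15 neighbours and Leiden clusters at resolution 0.8, seed 0 (scanpy 1.11.5, leidenalg 0.10.2). A cluster took the name of the list with the highest mean fold of its markers, if at least 3 of them were 1.5-fold or more above the other spots and the list had at least 1 gene, and no fewer than any other list, among the 10 genes of highest fold. Clusters 14, 15 and 16 failed the last condition and cluster 17 the first. An area was used in a set with at least 50 spots and a summed own list of at least 10% of its median over sets; the latter was added after the data were seen and left out the choroid-marker area of set 2. Of 12601 spots, 1081 had a gap of under 0.1 between their highest marker scores. Etv1, Smim32, Nab1 and 4 Rps6ka genes of the lists had no row. The named genes are the 7 members, the pathway lists and, per member, the 5 genes of most similar layout over areas; a few genes that these rules and the marker lists hold are not reported here. Levels are CPM of summed counts, with exact Poisson intervals, and ratios have exact conditional binomial intervals (scipy 1.17.1). Intervals cover counting error only. Counts of 2-fold differences are over genes averaging at least 1 CPM. The scaling alternatives (TMM, RLE) used edgeR 4.0.16 (R 4.3.3). The remaining software was pandas 2.3.3, numpy 2.4.6 and matplotlib 3.10.9 under Python 3.11.15. The count of 2-fold differences and the measure of similar layout were tested on simulated data, and the other steps were not.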

Additional observations from a re-analysis of the deposited data

How the results depend on the processing

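No paired analysis was possible because neither a replicate number nor a sample stands in a spot's name, and the planned edgeR and DESeq2 fits and the leaving out of replicates were not run for the same reason. The alternatives were clustering resolutions of 0.4 and 1.2, areas from a marker score, a minimum of 2000 counts per spot, TMM and RLE scaling, thinning, other gene filters and, added after the data were seen, leaving out each barcode set. The count of 23 gene and set pairs highest in cortex ranged from 20 to 26, that of 16 pairs higher in the striatal-marker area from 16 to 20, and that of 5 members 2-fold apart there from 4 without set 4 to 6 with TMM scaling, which added Egr3 (log2 fold 1.07). Genes 2-fold apart in that area numbered 2253 (17.0% of those tested), 2943 (22.1%) with TMM scaling, 7965 (41.2%) with no filter, 1076 (11.1%) with a minimum of 10 CPM and 1382 (10.5%) without set 4. TMM factors there were 0.848, 0.993, 0.853 and 1.06 in sets 1 to 4, against RLE factors of 0.976, 0.923, 0.961 and 0.942. Member pairs with a median r of at least 0.2 fell from 8 to 1 with thinning. Of the recomputed log2 ratios of area to other spots, 517 stayed within counting error of the reported value, 232 moved further and 7 changed sign. Nr4a3 did so in the striatal-marker area of set 4 (0.011 at resolution 0.4, 0.024 at 1.2). It also did so in the layer 2/3-marker area of sets 2 and 4 (-0.00400 and -0.00309 at 0.4). Egr1 did so in the layer 2/3-marker area of set 3 (-0.079 at 1.2, -0.050 with a minimum of 2000 counts). Nr4a2 did so in the layer 6-marker area of set 3 (-0.00213 with the marker score). Only the intervals of Egr1 left out 0 (-0.151 to -0.00722 and -0.101 to -7.16e-05), and the other values were within counting error of no difference. The cause was not tested. At resolution 0.4 no layer 6-marker area formed. Low levels are limited by depth: in the striatal-marker area Nr4a2 rested on 120, 80, 106 and 94 counts in sets 1 to 4.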

Other observations

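Clusters left unnamed also held the members. Cluster 14, led by Tafa2 and Igfn1, with 38, 74, 79 and 131 spots in sets 1 to 4, had 268, 286, 248 and 256 CPM of Egr1 and 8.29, 20.6, 14.7 and 27.8 CPM of Nr4a2. Cluster 16, led by Otof and Tac1, with 25, 71, 21 and 19 spots, had 124, 239, 194 and 146 CPM of Egr1 and 34.5, 92.3, 47.8 and 72.9 CPM of Nr4a1. Cluster 15, led by Pvalb and Six3, held 64 spots of set 1 and 83 of set 4, where Egr1 was at 24.0 and 15.7 CPM, below its level in every named area of those sets. Spots with their highest score for meningeal markers numbered 105, 109, 105 and 99 in sets 1 to 4, and Egr2 there was at 2.05, 22.0, 2.73 and 19.6 CPM, with sets 2 and 4 again above sets 1 and 3.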
